A study of Mus musculus with 2 samples.

Results

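The genes described here are 9 secreted factors that act on blood progenitors or hepatoblasts: Kitl, Cxcl12, Thpo, Epo, Hgf, Igf1, Ptn, Mdk and Bmp4. They were taken by symbol, all 9 were found, and they stand among 42462 mouse genes whose identifiers could be named. RNA came from livers of healthy B6NCrl mouse embryos at embryonic day 11.5, with male and female embryos pooled. There is 1 group, with 2 biological replicates of 1 library each. The label of replicate 1 names 109 embryos, and that of replicate 2 gives no number. Both biosamples carry the same donor entry, so how far they are independent is not known. The assay is labelled single cell RNA-seq, but the input was RNA of pooled tissue. Each library was made by a SmartSeq protocol, which copies polyadenylated RNA and amplifies it by PCR, from 1 cell-equivalent of RNA longer than 200 bases. No treatment, genotype or second stage was sampled, so the values are levels in this tissue and the spread between the libraries, with no test and no p-value.

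At this stage the liver is a new organ of hepatoblasts, which make hepatocytes and bile duct cells, and it is being settled by blood progenitors. These cells receive signals from stromal cells, endothelium, mesothelium and the hepatoblasts themselves. Kitl acts through the receptor tyrosine kinase Kit and Cxcl12 through the chemokine receptor Cxcr4, both known for holding blood stem and progenitor cells in their niche. Thpo and Epo are the cytokines of platelet and red cell production. Hgf, Igf1 and Bmp4 are known for effects on liver growth and specification, and Ptn and Mdk form a family of heparin-binding growth factors. In pooled tissue, fewer cells of a type and less RNA per cell cannot be told apart.

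The libraries held an expected count, an estimate of reads that need not be whole, of 33289699 in replicate 1 and 32607453 in replicate 2. The detection limit used below is 1 TPM (a share of all transcripts, corrected for length). That limit was reached by 8867 genes in the first replicate and 8290 in the second. Markers of liver and of blood formation were high. Alb, the albumin gene, had 601 and 615 TPM in replicates 1 and 2. Hbb-y, an embryonic globin gene, had 17435 and 16196 TPM. Summed over their lists, erythroid markers had 33678 and 31814 TPM (7 of 7 detected in both), megakaryocyte markers 959 and 1193 TPM (4 of 4) and macrophage markers 273 and 106 TPM (3 of 4). Heart muscle markers, 2 of 5 detected in both, summed to 50.2 TPM in replicate 1 and 235 TPM in replicate 2, with Myl7 and Myl2 at 0 reads in replicate 1. Over all protein-coding genes 27.3% were detected in both.

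Sequences that tell apart the transcripts below are shown first, because the levels of Kitl and Igf1 turn on them. They are read from the GENCODE M21 transcripts (mm10), 5′ to 3′. Kitl is made as a membrane-anchored factor in 2 main forms. Kitl-202 holds exon 6 (chr10:100080857-100080940, plus strand), known to encode the main cleavage site from which soluble factor is shed. Kitl-201 lacks it. In the lines that follow capitals mark this exon of 84 bases, and lower case gives 12 coding bases on each side.
Kitl-202: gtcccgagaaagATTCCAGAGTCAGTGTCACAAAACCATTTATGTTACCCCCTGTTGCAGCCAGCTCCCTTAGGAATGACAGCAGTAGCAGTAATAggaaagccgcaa
Kitl-201: gtcccgagaaagggaaagccgcaa

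The exon length is a multiple of 3, so the reading frame runs on, with 273 codons in Kitl-202 and 245 in Kitl-201. The transcripts differ in their ends as well, with annotated lengths of 5645 bases for Kitl-202 and 1260 bases for Kitl-201 in the files.

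Igf1 transcripts differ at both ends of the coding sequence. Igf1-202 starts in a class 1 leader exon (chr10:87859350-87859412, plus strand) and Igf1-206 in a class 2 leader exon (chr10:87861371-87861385). Capitals mark the start codon in the first pair of lines. Igf1-206 also holds a cassette exon of 52 bases (chr10:87915298-87915349), in capitals in the third line, which changes the carboxy-terminal extension peptide. Igf1-202 joins the neighbouring exons directly, as the last line shows.
Igf1-202 start: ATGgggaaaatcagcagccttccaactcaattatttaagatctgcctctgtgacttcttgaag
Igf1-206 start: ATGaccgcacctgca
Igf1-206 cassette: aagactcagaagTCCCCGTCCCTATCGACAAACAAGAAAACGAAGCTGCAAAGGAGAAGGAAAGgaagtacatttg
Igf1-202 junction: aagactcagaaggaagtacatttg

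Mdk and Ptn were the highest members, and the family likeness is visible in the coding exon of 162 bases that both share in length. The exon of Mdk lies at chr2:91930818-91930979 (minus strand) and that of Ptn at chr6:36741278-36741439 (minus strand). Capitals mark the 96 bases that are identical at the same position without gaps, 59.3% of the exon.
Mdk-202: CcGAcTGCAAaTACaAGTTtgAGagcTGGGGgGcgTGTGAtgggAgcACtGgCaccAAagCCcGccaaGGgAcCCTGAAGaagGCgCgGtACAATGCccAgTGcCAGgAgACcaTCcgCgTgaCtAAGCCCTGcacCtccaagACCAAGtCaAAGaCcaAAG
Ptn-201: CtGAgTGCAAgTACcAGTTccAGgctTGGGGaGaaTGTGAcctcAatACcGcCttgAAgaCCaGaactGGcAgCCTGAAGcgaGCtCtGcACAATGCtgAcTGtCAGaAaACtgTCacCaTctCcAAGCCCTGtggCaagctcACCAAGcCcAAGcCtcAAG

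Mdk, Ptn, Kitl, Cxcl12 and Igf1 were detected in both libraries, and Thpo, Hgf, Epo and Bmp4 in neither. No member was detected in 1 library alone. Among 21474 protein-coding genes 27.3% were detected in both libraries and 16.8% in 1 alone. At a higher TPM of 20 to 100, 30.3% of 4374 genes were under TPM 1 in the other library. Ptn, Kitl, Cxcl12 and Igf1 had their higher value in that range, and each was also above TPM 1 in the other library.

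**Figure D1:**
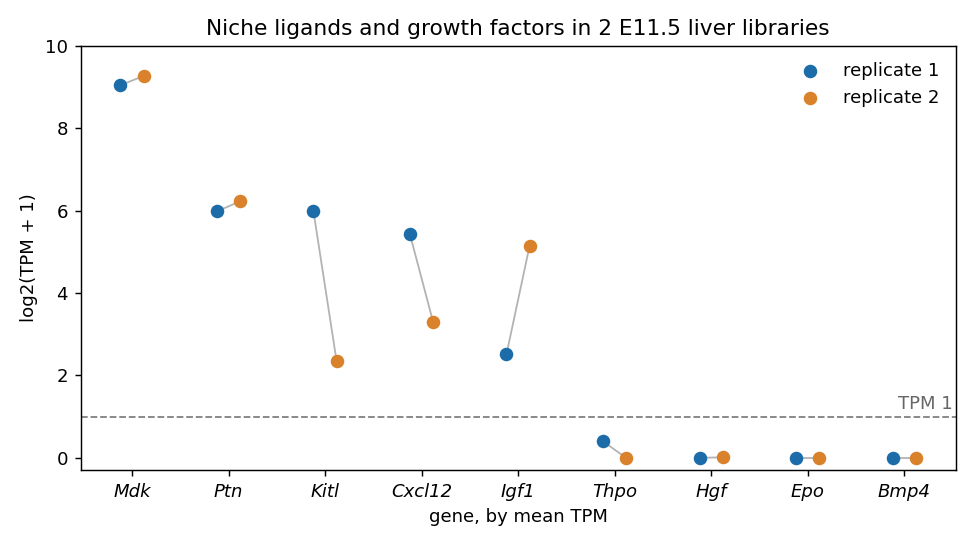
Level of each member as log2(TPM + 1) in replicate 1 (blue) and replicate 2 (orange), ordered by mean TPM, 1 point per library with a grey line joining them and the detection limit of TPM 1 dashed. Mdk stands above the rest in both libraries, Ptn is nearly level, Kitl and Cxcl12 are higher in replicate 1, Igf1 is higher in replicate 2, and 4 members lie under the limit.

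Mdk, midkine, led the members. It had 528 TPM from 10485 reads in replicate 1 and 617 TPM from 12066 reads in replicate 2, a mean of 572 ± 63 TPM (SD, n = 2). It ranked 305th and 260th of all genes. The gene (chromosome 2, 91929805 to 91932297, minus strand, mm10) took 75.4% of the summed TPM of the members in replicate 1 and 83.5% in replicate 2. All 4 Mdk transcripts in the files share the same coding exons and differ in their ends. Mdk-202 led in both libraries, with 497 and 506 TPM, or 94.2% and 82% of the gene. Mdk-203 had 23.9 and 81.9 TPM and Mdk-204 had 4.62 and 28.8 TPM, so most of the excess of replicate 2 was assigned to these 2 transcripts and little to Mdk-202.

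Ptn, pleiotrophin, came second with 62.2 TPM from 3536 reads and 74 TPM from 4177 reads, a mean of 68.1 ± 8.3 TPM (SD, n = 2). The gene lies on chromosome 6 (36714929 to 36810220, minus strand) and had 1 transcript in the files. Mdk exceeded Ptn by 8.48 times in replicate 1 and 8.34 times in replicate 2, so their proportion barely differed between the libraries.

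Kitl, the Kit ligand or stem cell factor (chromosome 10, 100015630 to 100100416, plus strand), had 62.6 TPM from 4553 reads in replicate 1 and 4.09 TPM from 666 reads in replicate 2. The TPM values were 15.3-fold apart and the CPM, expected counts scaled to a common library total, 6.7-fold apart. The rest of the gap followed from the transcripts to which reads were assigned, since the effective length of the gene, over which reads are divided, was 2461 bases in replicate 1 and 5546 bases in replicate 2. In replicate 1 the form without exon 6, Kitl-201, had 44 TPM (credibility interval of the deposited estimate 40.5 to 46.1) and 70.4% of the gene. In replicate 2 it had 0 TPM, with an upper bound of 0.254. The form with exon 6, Kitl-202, had 18.6 TPM from 3042 reads and 4.09 TPM from 666 reads, and so made up the whole of the gene in replicate 2. The forms are also separated by reads in their ends, and the deposited tables do not show which reads decided the assignment.

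Cxcl12, the stromal chemokine SDF-1 (chromosome 6, 117168535 to 117181367, plus strand), had 42 TPM from 2225 reads in replicate 1 and 8.84 TPM from 462 reads in replicate 2. These values were 4.75-fold apart in TPM and 4.72-fold apart in CPM, with effective lengths of 1794 and 1779 bases. Cxcl12-202, the alpha form of 89 codons, took 98.8% of the gene in replicate 1 and 100% in replicate 2. Cxcl12-203, the beta form of 93 codons, had 46.4 reads and 0.52 TPM in replicate 1, while replicate 2 held no read of it. Cxcl12-201, the gamma form of 119 codons with a basic tail, had no read in either library.

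Igf1, insulin-like growth factor 1 (chromosome 10, 87858265 to 87937042, plus strand), went the other way, with 4.72 TPM from 971 reads in replicate 1 and 34.6 TPM from 1457 reads in replicate 2. The TPM values were 7.33-fold apart, whereas CPM values were 1.53-fold apart. The long class 1 transcript Igf1-202 was level between the libraries, at 4.72 TPM from 971 reads and 4.76 TPM from 972 reads. The gap was assigned to Igf1-206, the class 2 form with the cassette exon shown above. This form had 0 TPM in replicate 1, with an upper bound of 0.18. In replicate 2 it had 29.8 TPM from 484 reads (credibility interval 26.5 to 31.9). As for Kitl, the deposited tables do not show which reads decided the assignment. Igf1-206 is annotated at 651 bases and Igf1-202 at 7052 bases, so 1 read of the short form counts for far more TPM. The antisense gene Igf1os, which overlaps Igf1, had no read in either library.

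**Figure D2:**
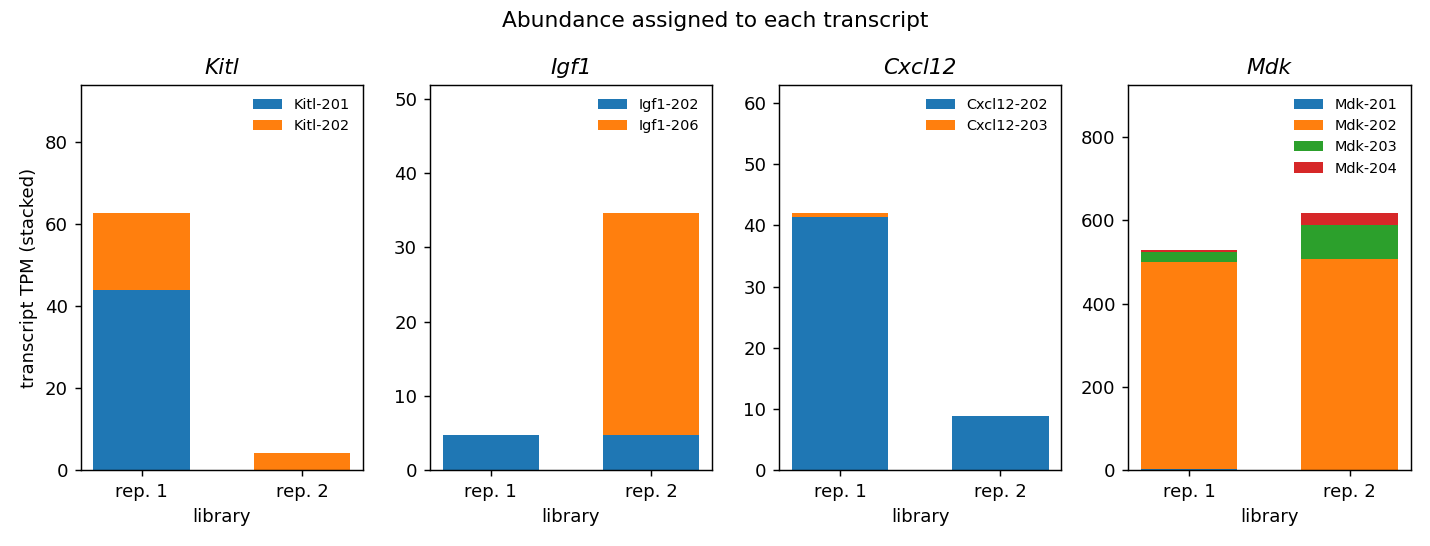
Stacked TPM assigned to the transcripts of Kitl, Igf1, Cxcl12 and Mdk in each library (bars start at 0, each panel has its own axis, transcripts of at most 0.1 TPM in both libraries left out). Kitl-201 is assigned abundance in replicate 1 alone and Igf1-206 in replicate 2 alone, and Cxcl12-202 and Mdk-202 lead in both.

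Among Kitl, Cxcl12, Igf1 and Mdk, the members with several transcripts and reads in both libraries, 2 of 4 had the same leading transcript in both. Over all 4436 such genes averaging 10 TPM or more, the share was 62.4%. Effective lengths that differed at least 2-fold between the libraries, as for Kitl and Igf1, were seen in 8.6% of 5962 genes. That comparison was chosen after the values of Kitl and Igf1 were seen.

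The order of the mean levels was Mdk, Ptn, Kitl, Cxcl12, Igf1, then the 4 undetected genes. Mdk stood apart from Ptn in both libraries. Ptn and Kitl, Kitl and Cxcl12, and Cxcl12 and Igf1 did not differ beyond their spread, since the ranges over the libraries overlapped. Igf1 stood apart from Thpo, as the lower of its values was 4.72 TPM and the higher value of Thpo 0.32 TPM. Within replicate 1 alone Kitl and Ptn were at about the same level, and in replicate 2 Kitl was the lowest of the 5 detected members.

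Differences between the libraries were set on a common scale as the log2 ratio of TPM + 1, replicate 1 over replicate 2, less the median over genes averaging 10 TPM or more. Kitl had 3.67, Cxcl12 2.15 and Igf1 -2.62, while Mdk had -0.20 and Ptn -0.22. Thus 3 of 5 members passed 2-fold, 2 of them higher in replicate 1 and 1 higher in replicate 2. Of all 6770 genes compared 51% passed 2-fold, 25.8% higher in replicate 1 and 25.2% higher in replicate 2, so the share among the members is near that of genes at large. The ratio of Kitl was larger in size than that of 77.9% of these genes, and those of Mdk and Ptn larger than 11.7% and 13.1%. The ratios understate the differences of low genes because of the pseudocount of 1. With reads divided by 1 effective length per gene, an added comparison, Kitl stood at 2.58 and Igf1 at -0.53, and 2 of 5 members passed 2-fold, against 50.6% of genes.

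**Figure D3:**
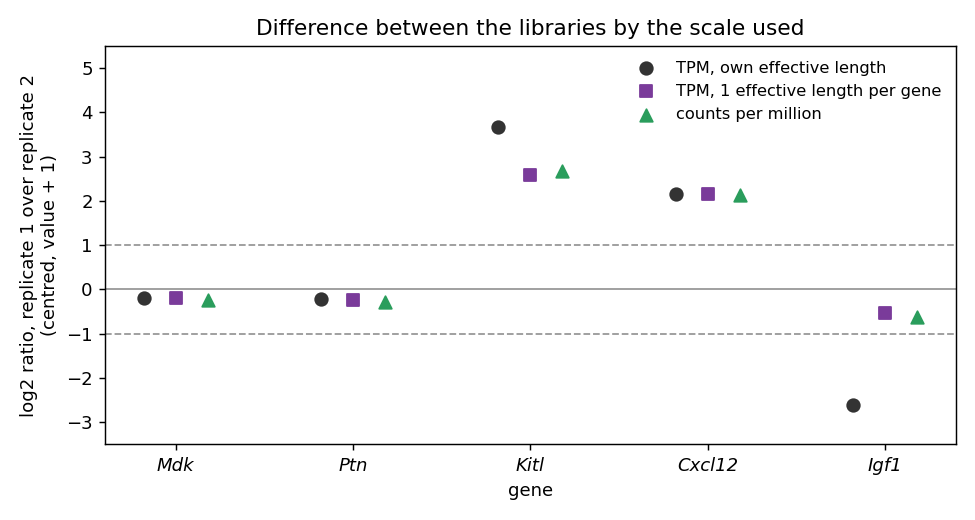
Centred log2 ratio, replicate 1 over replicate 2, of the 5 detected members on 3 scales (circles for TPM as deposited, squares for TPM with 1 effective length per gene, triangles for CPM), with 2-fold dashed. Cxcl12 holds its place on each scale, the ratio of Kitl shrinks from 3.67 to 2.58, and that of Igf1 comes inside 2-fold at -0.53.

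The credibility intervals deposited with the TPM estimates were much narrower than the spread between libraries. For Ptn they ran from 59.1 to 63.1 TPM in replicate 1 and from 70.4 to 74.8 in replicate 2, and for Mdk from 508 to 528 and from 595 to 616. They are not centred on the TPM values, since the TPM of Mdk in replicate 2, 616.64, was just above its upper bound of 616.34. The intervals of all 5 detected members were apart between the libraries. So were those of 90.2% of 5962 genes, which shows that the intervals do not carry the spread between libraries and cannot be read as its error.

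Thpo, thrombopoietin (chromosome 16), had 14 reads and 0.32 TPM in replicate 1 and no read in replicate 2, where the upper credibility bound was 0.103 TPM. Hgf, hepatocyte growth factor (chromosome 5), had no read in replicate 1 and 1 read in replicate 2. Epo, erythropoietin (chromosome 5), had no read in either library, with upper credibility bounds of 0.327 TPM in replicate 1 and 0.33 TPM in replicate 2. Bmp4 (chromosome 14) had no read either, with upper bounds of 0.285 and 0.288 TPM. The span annotated for Epo in GENCODE M21 also holds Pop7, Gnb2 and Gigyf1, all with reads in both libraries. Whether these genes share exons with Epo was not examined, so their reads do not bear on its count. The credibility bounds describe the reads of each library and not the spread between libraries. The 4 genes were thus not detected at 1 TPM, and their absence from the tissue is not shown.

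Receptors of the members were then read side by side with their ligands. Of 20 receptor genes 8 were detected in both libraries, 7 in 1 alone and 5 in neither. Over all protein-coding genes 27.3% were detected in both and 16.8% in 1 alone. Kit, the receptor of Kitl, was steady at 29.7 and 30.7 TPM from 4068 and 4609 reads, although its ligand was not. Cxcr4, the signalling receptor of Cxcl12, had no read in either library. Ackr3, the atypical receptor that takes up Cxcl12, had 28.3 and 3.24 TPM. Epor, the erythropoietin receptor, had 87.5 and 116 TPM beside a ligand without reads.

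Growth factor receptors were more patchy. Met, the receptor of Hgf, reached 8.38 TPM (1527 reads) in replicate 1, while replicate 2 held no read of it. Igf1r, the receptor of Igf1, had 6.1 TPM from 791 reads in replicate 1 and 1 read in replicate 2. Of the genes for proteins that bind Mdk and Ptn, Ncl, nucleolin, mainly a nucleolar protein, had 489 and 424 TPM, the proteoglycan genes Sdc1 31.8 and 25.7 TPM and Sdc4 9.62 and 54.8 TPM, and the endocytic receptor gene Lrp1 14 and 10.5 TPM. Sdc3 had 3.12 TPM in replicate 1 and no read in replicate 2. Ptprz1 was under 0.1 TPM in both libraries, with 1 and 3 reads, and Alk had no read.

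For Bmp4, the type 2 receptor gene Bmpr2 was detected in both libraries at 9.83 and 1.24 TPM. Bmpr1a had 0.01 and 1.52 TPM, Acvr1 0 and 16 TPM and Acvr2a 0 and 2.57 TPM, each detected in replicate 2 alone. Bmpr1b had no read and Acvr2b 1 read in replicate 2. Counting pairs, 10 of 27 ligand and receptor pairs had both genes detected in both libraries. Of these, 8 pair Mdk or Ptn with the same 4 binding proteins, and the others are Kitl with Kit and Cxcl12 with Ackr3. No share over other gene pairs was computed to set beside this count.

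**Figure D4:**
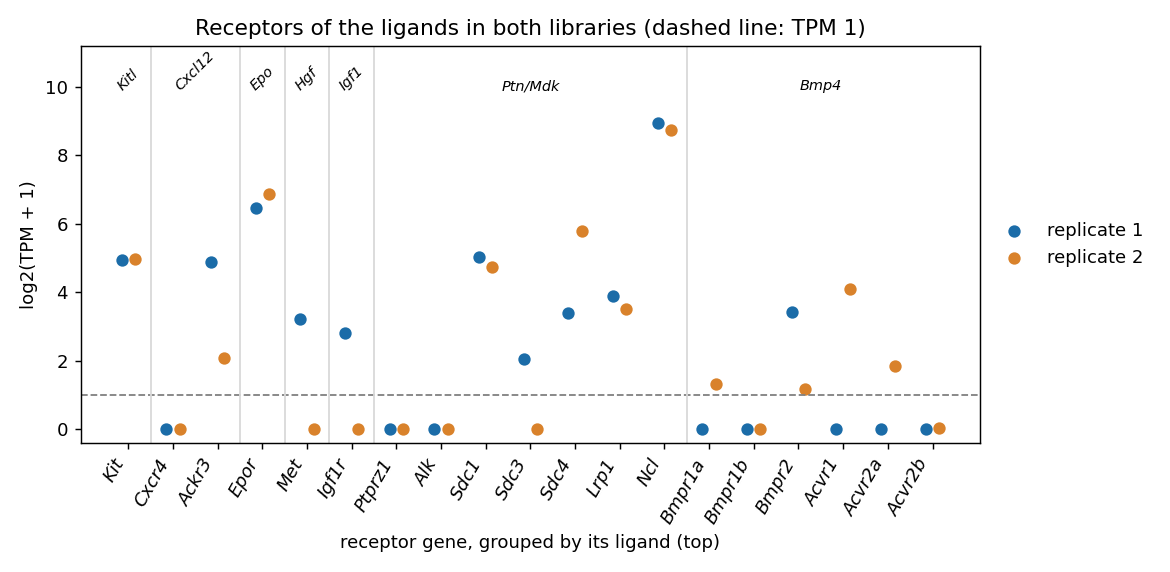
Receptor genes of all members but Thpo, grouped by ligand (top), as log2(TPM + 1) in replicate 1 (blue) and replicate 2 (orange), with TPM 1 dashed. Kit, Epor, Sdc1, Lrp1 and Ncl are close between the libraries, while Met, Igf1r, Acvr1 and Acvr2a are seen in 1 library.

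Genes whose products bind, block or cleave the members gave 7 of 23 detected in both libraries, 1 in replicate 1 alone and 15 in neither. The share in both, 30.4%, is near the 27.3% of all protein-coding genes. In 1 library alone the share of protein-coding genes was 16.8%. By mean level Igfbp4, Hgfac and Igfbp5 were the highest. Of the genes for Igf-binding proteins, Igfbp4 had 69.1 and 168 TPM and Igfbp5 9.53 and 40 TPM. Igfbp3 had 10.7 and 2.98 TPM, and Igfbp1 25.1 TPM in replicate 1 and no read in replicate 2, while Igfbp2, Igfbp6 and Igfals were detected in neither library. Hgfac, the protease that activates Hgf, had 24.6 and 45.7 TPM while Hgf itself was not detected, and its inhibitor gene Spint2 had 21.7 and 3.12 TPM. Of 7 genes for extracellular BMP regulators, Twsg1 alone was detected, at 11.1 and 15.6 TPM, and Bmper, Chrd and Grem1 had no read. Adam17, a protease known to shed cell surface proteins including Kit ligand, had 3.04 and 16.7 TPM. Dpp4, which inactivates Cxcl12, had no read.

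Of 29 other niche ligands, 3 were detected in both libraries, 6 in 1 alone and 20 in neither, beside 27.3% of protein-coding genes in both and 16.8% in 1 alone. Replicate 1 by itself held 5 of them and replicate 2 held 7, and 15 had no read in either. Igf2, a fetal growth factor that uses the same receptor as Igf1, had 563 and 398 TPM, beside 528 and 617 TPM for Mdk. Dlk1, a membrane protein of hepatoblasts that is also released, had 117 and 80.9 TPM, and Bmp7 had 3.11 and 16.2 TPM. The contrast genes Bmp2, Csf2 and Csf3 had no read. In replicate 2 alone Wnt5a had 19.8 TPM and Vegfa 9.72 TPM.

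Genes known to respond to these signals were detected in both libraries in 4 of 13 cases, in replicate 1 alone in 5 and in neither in 4. The share in both, 30.8%, is near the 27.3% of all protein-coding genes. Of protein-coding genes 16.8% were detected in 1 library alone. Id3, a BMP response gene, had 330 and 76.5 TPM, Id2 175 and 216 TPM and Id1 50.4 and 32.5 TPM, beside Bmp4 without reads. Smad6 had 16.9 TPM and Msx2 10.5 TPM in replicate 1 and no read in replicate 2. Of the JAK-STAT response genes Pim1 was detected in both, at 5.02 and 7.24 TPM. Socs2 had 55.9 TPM in replicate 1 and 3 reads in replicate 2, and Cish, Socs3 and the BMP response gene Smad7 had no read. Other ligands use the same response genes, and their link to these members was not tested.

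Markers of the cells that could make the ligands were read beside them. Of 25 stromal, mesothelial and endothelial markers, 15 were detected in both libraries, or 60%, beside 27.3% of all protein-coding genes. Stromal and stellate markers summed to 266 TPM in replicate 1 and 601 TPM in replicate 2, with 7 of 12 detected in both, and Ngfr and Lrat without reads. The markers did not move together. The collagen gene Col3a1 had 60.7 and 150 TPM, Lum 28.8 and 108 TPM and Acta2 13.9 and 91.9 TPM. Col1a1 had 27.35 and 71.48 TPM, Col1a2 36.55 and 54.91 TPM, Dcn 49.32 and 95.2 TPM and Hand2 0 and 6.63 TPM. These were the stromal markers that were higher in replicate 2. Those higher in replicate 1 were Pdgfrb at 11 and 0.01 TPM, Pdgfra at 1.78 and 0.03 TPM and Des at 36.2 and 23.5 TPM. Endothelial markers summed to 140 and 154 TPM, with 6 of 9 detected in both and 3 in replicate 2 alone. Among them Eng had 27.7 and 9.12 TPM and Lyve1 44.6 and 22.6 TPM, whereas Stab2 had 15.9 and 31.4 TPM, Tek 0.02 and 7.28 TPM and Pecam1 0 and 6.88 TPM. Mesothelial markers summed to 35.7 and 45.1 TPM, with 2 of 4 in both and Msln without reads. Hepatoblast markers summed to 7458 and 6468 TPM, most of it Afp at 4870 and 4016 TPM, with 6 of 8 detected in both. Hnf4a was read in replicate 1 alone, at 34.8 TPM, and Cdh1 in replicate 2 alone, at 8.06 TPM. The part of cell makeup in the differences between the libraries was not tested.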

How the data were processed

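Per the file headers, each library has a gene and a transcript table with expected counts, TPM, FPKM, posterior mean TPM, credibility bounds, effective lengths and the percent of a gene assigned to each transcript, all as deposited. The deposited expected counts are estimated reads that need not be whole; the deposited TPM and FPKM values are scaled for effective length. The deposited percent values refer to abundance within a gene. The assembly is mm10 and the annotation GENCODE M4, per the labels and the readme files; the aligner, the quantification program and the strand setting are not stated: not given in the sources used here.

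Names and coordinates came from GENCODE M21, matched by identifier without version: 42462 of 43346 Ensembl rows matched. Spike-ins (97 rows) and 26248 rows with numeric identifiers stayed in the TPM totals only. 1 of 139 list genes, Flt3l, had no single match and was not used. CPM was computed from expected counts. Levels are given per library, as mean ± SD where n = 2 is stated. Ratios are log2(TPM + 1), replicate 1 over replicate 2, centred on the median gene (shift -0.02), for genes averaging 10 TPM or more. The ratio step was tested on simulated data with counting noise alone and the same length for every gene. That run checks the computation and cannot show how far the ratios of these libraries hold. The libraries were not 1 library entered again: chi-square per degree of freedom over 11135 genes was 815. Python 3.11.15, numpy 2.4.6 and pandas 2.3.3 were used.

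The members and lists were chosen with earlier results of these data known. Named were all members and receptors, and of other lists the 3 highest genes, up to 3 without reads, and the highest partner of each ligand. Genes beyond that rule (Igfbp1, Igfbp3, Spint2, Grem1, Bmp7, Wnt5a, Vegfa, Smad6, Msx2, Pim1, Socs2, Igfbp2, Igfbp6, Igfals and the cell markers) were chosen after their values were seen. 1 receptor and 1 other ligand that the rule names are not reported here, though the counts over their lists include them. No gene is named for likeness of pattern, since 2 libraries give 1 ratio per gene. No sample column was left unused.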

Additional observations from a re-analysis of the deposited data

How the results depend on the processing

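The count of 5 members detected in both libraries held at a TPM of 0.1, with FPKM, with posterior mean TPM, at 10 reads and in each library alone (5 in replicate 1 and 5 in replicate 2). At a TPM of 5 it was 3, because Kitl in replicate 2 and Igf1 in replicate 1 lie under that limit, and the binding and processing genes went from 7 to 4 as fewer values pass it. Leaving out a library left other ligands between 5 and 7, against 3 in both, and response genes between 4 and 9, against 4, since 1 library need then pass. The 3 members past 2-fold were 3 with a pseudocount of 0.1, no filter or a filter at TPM 1, no centring, centring on spike-ins, posterior mean TPM and FPKM, and 2 with CPM or 1 effective length per gene. Igf1 accounts for that difference, at -0.62 in CPM against -2.62 in TPM. Kitl ranged from 2.58 to 4.06 and Cxcl12 from 2.13 to 2.54. Centred on 38 spike-ins, Mdk stood at 0.19 and Ptn at 0.17, the opposite sign of their main values, both inside 2-fold. By posterior mean TPM, Hgf, Epo and Bmp4 averaged 0.02, 0.15 and 0.12 TPM. Hgf had 1 read in replicate 2 and Epo and Bmp4 had none in either library, so these averages do not show detection. The cause of the shift was not tested. The leading transcripts matched in 2 of 4 members by posterior mean TPM too. No paired analysis was possible because there is 1 group. With 2 libraries of 1 cell-equivalent each, every level rests on few starting molecules and PCR copies are not independent, so read counts overstate precision.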
